A study of Bos grunniens with 3 samples.

Results

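The telogen library of white yak hair follicle was compared with the catagen library, using every cell with at least 200 detected genes in each. This kept 14502 telogen cells and 12062 catagen cells, 26564 of the 38551 cells in the series, whose other library is from anagen. Both libraries were made from scapular skin of healthy Tianzhu white yak (Bos grunniens) about 2 years old, with no treatment or genetic change named. The skin was digested with dispase, single follicles were pulled out and dissociated with trypsin, and the cells went through the 10x Genomics single-cell 3′ protocol. Telogen and catagen are the stage labels of the samples, although the protocol text deposited with the catagen sample names anagen. Each stage is 1 library, and how animals map to libraries is not stated. Stage, animal and library preparation therefore cannot be told apart, and all intervals given here are 95% intervals that cover counting error only.

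The hair follicle cycles through growth (anagen), regression (catagen) and rest (telogen). In catagen the lower follicle with its matrix, inner root sheath and lower outer root sheath is lost by cell death, and in telogen a short follicle remains around the club hair, with its stem cells in the bulge and hair germ. The epidermis and the upper follicle, which also come away with a pulled follicle, keep renewing and cornifying through the cycle.

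The catagen library held 51537357 unique molecular identifiers (UMIs, each standing for 1 captured transcript) and a median of 3350 UMIs per cell, against 103430933 and 5583.5 in telogen. The smallest cell held 500 UMIs in both. The telogen and catagen libraries shared 49 cell barcodes. The 20 most abundant genes took 32.5% of catagen and 27.3% of telogen UMIs. Keratinocyte markers dominated both: the 9 basal keratinocyte markers summed to 15143 CPM (a gene's UMIs scaled to one common total for each library) in catagen and 22967 CPM in telogen, and the 8 suprabasal ones to 14778 and 17794 CPM. Markers of other cell types were lower, with sums of 4.77 and 7.06 CPM for the endothelial list, 5.96 and 27.5 CPM for the immune list, 16.9 and 3.29 CPM for the melanocyte list and 0.0194 and 0.0193 CPM for the red blood cell list. The mesenchymal list summed to 343 and 238 CPM, of which TAGLN, an actin-binding protein of contractile cells, made up 334 and 229 CPM. The other 10 mesenchymal markers with a row were at 4.91 CPM or less in both libraries.

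UMIs were summed over the cells of a library and expressed as CPM, and a gene entered the comparison if it had a symbol and reached 10 CPM in either library, which left 4860 genes. Of these, 153 (3.15%) were at least 2-fold higher in telogen and 583 (12%) were at least 2-fold lower. The median gene had a log2 ratio of telogen over catagen of -0.29, so that relative to the median gene the split became 361 higher and 262 lower. In sums over a library, fewer cells of a type and less RNA per cell cannot be told apart, and for that reason levels within classes of cells are given below.

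**Figure D1:**
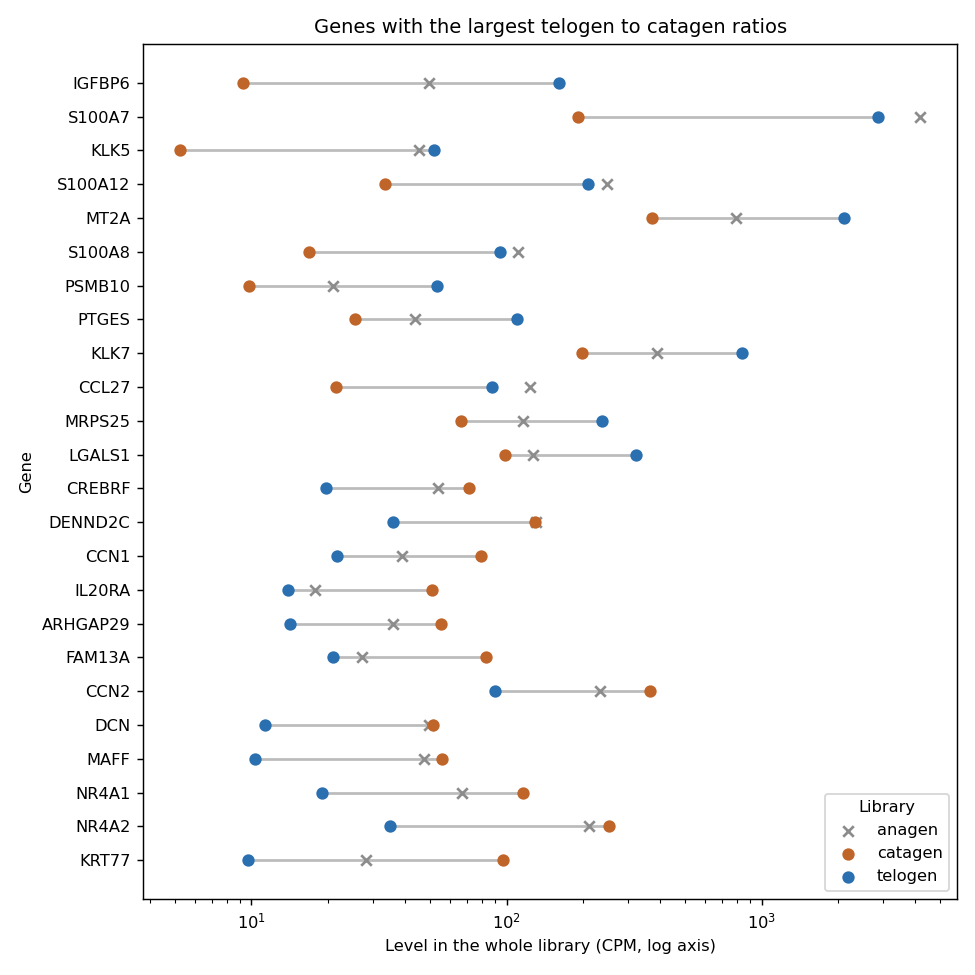
Level of each gene (CPM, log axis) in the catagen (orange), telogen (blue) and anagen (grey cross) library, for 24 genes at 50 CPM or more, 12 from each end of the ranking by ratio of telogen over catagen. A grey line joins catagen to telogen: S100A7 went from 191 to 2859.5 CPM and NR4A2 from 252 to 34.9 CPM.

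S100 genes encode small calcium-binding proteins, several of which keratinocytes release as antimicrobial or alarm signals. S100A7 (psoriasin) stood at 191 CPM in catagen and 2859.5 CPM in telogen, a 15.0-fold difference (log2 3.91, interval 3.88 to 3.93). S100A12 stood at 33.3 and 208 CPM (log2 2.65), and S100A8, a subunit of calprotectin, at 16.8 and 94.5 CPM (log2 2.49). In anagen these 3 genes were above the telogen level, at 4194.1, 248 and 111 CPM. Of 9 S100 genes at 10 CPM, 6 were at least 2-fold higher and 0 lower, beside 3.15% and 12% of all genes tested. Their median log2 ratio was 1.36, beside -0.29 over all genes tested. The least raised, S100A10 and S100A13, had ratios of 0.52 and 0.60. S100A2, which is found in basal and outer sheath keratinocytes, had one of the 5 largest gains in CPM, from 1625.2 to 4559.6.

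Kallikreins are serine proteases that cut the corneodesmosomes which hold cornified cells together, and SPINK proteins inhibit them. KLK5, which activates other kallikreins, stood at 5.26 CPM in catagen and 52.0 CPM in telogen (log2 3.31, interval 3.13 to 3.49). KLK7 stood at 197 and 838 CPM (log2 2.09) and KLK6 at 1.59 and 24.1 CPM (log2 3.92, interval 3.60 to 4.25). Inhibitor genes went both ways. SPINK9 was higher, at 5.55 and 48.2 CPM (log2 3.12), and so was SPINK7, at 2.54 and 13.2 CPM (log2 2.38). SERPINA12 and SPINK5, given below, were lower. Of 15 kallikrein and inhibitor genes at 10 CPM, 6 were at least 2-fold higher and 1 lower, beside 3.15% and 12% of all genes. Their median was 0.48. Relative to the median gene the median of the list was 0.77, and it came to 1.34 without the 5% of cells with the most UMIs, 1.39 with cells thinned to 1500 UMIs, 1.57 as a mean over cells and 1.64 at a minimum of 1 CPM. The lower one was SERPINA12 (vaspin), an inhibitor of KLK7, at 19.8 CPM in catagen and 3.30 CPM in telogen (log2 -2.59). SPINK5, which encodes the inhibitor LEKTI, went from 1592.9 to 942 CPM (log2 -0.76).

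Suprabasal keratins did not move as a group. KRT77, a keratin of suprabasal epidermis and sweat ducts, had the lowest ratio of all genes at 50 CPM, with 97.2 CPM in catagen and 9.71 CPM in telogen (log2 -3.32, interval -3.42 to -3.23). KRT2, a keratin of the upper spinous layer, went the other way, from 8.42 to 26.8 CPM (log2 1.67). The main suprabasal pair was close to even, with KRT10 at 4917.3 and 4783.5 CPM and KRT1 at 4416.9 and 6184.9 CPM (log2 0.49). KRTDAP, a secreted peptide of differentiating keratinocytes, stood at 2021.7 and 4349 CPM (log2 1.11). PADI1, which citrullinates keratins, and SCEL, a cornified envelope precursor, had ratios of -1.46 and -1.45. Of 20 suprabasal and cornification genes at 10 CPM, 2 were at least 2-fold higher and 5 lower, with a median of -0.52. Over all genes tested the shares were 3.15% and 12%.

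The highest ratio among genes with a symbol that reached 50 CPM belonged to IGFBP6, which encodes a binding protein with a preference for IGF2. It stood at 9.26 CPM in catagen (477 UMIs) and 160.3 CPM in telogen (16580 UMIs), a 17.3-fold difference (log2 4.11, interval 3.98 to 4.25), with 49.6 CPM in anagen. MT2A, a metallothionein that binds zinc and copper, stood at 372 and 2106.2 CPM (log2 2.50), beside 791 CPM in anagen. The prostaglandin E synthase PTGES stood at 25.5 and 110 CPM (log2 2.11). CCL27, the chemokine of basal keratinocytes that attracts skin-homing T cells, stood at 21.4 and 87.7 CPM (log2 2.04). LGALS1 (galectin 1) stood at 98.9 and 322 CPM (log2 1.71), and MRPS25, a protein of the mitochondrial ribosome, at 66.1 and 236 CPM (log2 1.84). All 6 were lowest in catagen among the 3 libraries.

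PSMB8 and PSMB10, catalytic subunits of the immunoproteasome, were both higher in telogen. PSMB10 stood at 9.80 CPM in catagen, 53.4 CPM in telogen and 20.8 CPM in anagen (log2 2.45, interval 2.31 to 2.58 for telogen over catagen). PSMB8 stood at 7.08, 33.8 and 8.83 CPM in the same order (log2 2.26). ISG15, an interferon-induced ubiquitin-like protein, stood at 46.4 and 32.5 CPM. Of 12 such genes at 10 CPM, 3 were at least 2-fold higher and 0 lower, beside 3.15% and 12% of all genes tested. The last of the 3 was SAMD9 (3.36 and 10.8 CPM), and the median of the list was 0.17.

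Immediate early genes are switched on within minutes by growth factors or stress, and many of their transcripts are short-lived. NR4A2 and NR4A1, orphan nuclear receptors of this class, stood at 252 and 116 CPM in catagen against 34.9 and 19.0 CPM in telogen (log2 -2.85 and -2.62). JUN and FOS, subunits of the AP-1 transcription factor, went from 3179.3 to 1076.4 CPM (log2 -1.56) and from 1645.4 to 766 CPM (log2 -1.10). ATF3, a stress-induced factor, went from 744 to 210 CPM (log2 -1.82), and EGR1 from 171 to 50.1 CPM (log2 -1.77). Of 31 immediate early genes at 10 CPM, 22 were at least 2-fold lower and 0 higher, beside 12% and 3.15% of all genes tested. None of them had a ratio above 0. Their median was -1.33, and IER3 and FOSL2 were the least lowered at -0.18 and -0.23. In anagen NR4A2 stood at 211 CPM, JUN at 2471.8 CPM and ATF3 at 588 CPM, nearer to catagen than to telogen, whereas FOS at 775 CPM was near telogen.

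CCN2 and CCN1, matricellular proteins induced by YAP signalling and stretch, were also among the 12 lowest. CCN2 stood at 366 CPM in catagen and 90.3 CPM in telogen (log2 -2.02), and CCN1 at 79.4 and 21.6 CPM (log2 -1.88). Among the 12 were also ARHGAP29, a GTPase-activating protein (55.5 and 14.2 CPM), and IL20RA, a receptor chain for the IL-20 cytokines (51.0 and 13.9 CPM). FAM13A, MAFF, DENND2C and CREBRF completed the lowest genes, with ratios from -2.43 for MAFF to -1.86 for CREBRF.

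Inner root sheath keratins were lower as a group. KRT27 stood at 721 CPM in catagen and 258 CPM in telogen (log2 -1.48), KRT25 at 773 and 309 CPM (log2 -1.32) and KRT71 at 675 and 350 CPM (log2 -0.95). KRT26 fell furthest, from 10.5 to 0.474 CPM (log2 -4.47, interval -4.93 to -4.05). GATA3, a transcription factor of the inner root sheath lineage, went from 53.4 to 21.5 CPM (log2 -1.31). Of 9 inner root sheath genes at 10 CPM, 6 were at least 2-fold lower and 0 higher, beside 12% and 3.15% of all genes. Their median was -1.17. CRYM, a thyroid hormone binding protein on the same list, went from 20.9 to 35.3 CPM (log2 0.76). Keratins of 1 type are similar in sequence, and how reads that fit several of them were counted was not examined.

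Hair shaft genes were lower to a smaller extent. KRT85 and KRT35, early hair keratins, stood at 441 and 38.5 CPM in catagen and 292 and 15.2 CPM in telogen (log2 -0.60 and -1.34). HOXC13, which activates hair keratin genes, went from 13.3 to 5.95 CPM (log2 -1.16), and LEF1, the WNT effector of the hair matrix, from 19.1 to 6.32 CPM (log2 -1.59). Of 8 hair shaft and matrix genes at 10 CPM, 3 were at least 2-fold lower and 0 higher, with a median of -0.73. The shares over all genes tested were 12% and 3.15%. In anagen KRT85 was at 949 CPM and KRT27 at 765 CPM, so that telogen had the lowest level of both among the 3 libraries.

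Genes of the bulge and of follicle stem cells were lower too. LGR5, a receptor for R-spondins on cycling follicle stem cells, stood at 21.7 CPM in catagen and 7.61 CPM in telogen (log2 -1.51). LHX2, a transcription factor that maintains follicle stem cells, stood at 107 and 49.4 CPM (log2 -1.12), and WIF1, a secreted WNT inhibitor, at 16.7 and 4.40 CPM (log2 -1.92). FGF18, a bulge signal that holds follicles at rest in mice, went from 19.7 to 2.78 CPM (log2 -2.82, interval -3.02 to -2.63). SOX9, which marks outer root sheath and bulge, went from 529 to 391 CPM (log2 -0.44), near the median gene. Against these, CXCL14 and SPARC stood higher, at 189 and 333 CPM (log2 0.82) and at 598 and 914 CPM (log2 0.61). Of 14 such genes at 10 CPM, 7 were at least 2-fold lower and 0 higher, beside 12% and 3.15% of all genes tested. Their median was -0.90.

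In the basal layer and outer root sheath the keratins KRT14 and KRT17 gained while KRT15 lost. KRT14 had the largest gain in CPM of any gene with a symbol, from 11744 to 20286 (log2 0.79), and KRT17 went from 3654.3 to 6373 CPM (log2 0.80). KRT5, the partner of KRT14, was near even at a log2 ratio of 0.07. KRT15, a keratin of basal and bulge cells, went from 678 to 281 CPM (log2 -1.27), and COL17A1, a hemidesmosome collagen, from 308 to 193 CPM (log2 -0.68). Of 14 genes of this list at 10 CPM, 1 was at least 2-fold higher (MT2A, which is on the list) and 2 were lower, with a median of -0.26. Those counts are near the shares over all genes tested, 3.15% higher and 12% lower.

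In each of the 5 lists of signalling genes the median was below that of all genes tested. Their counts stand beside 12% at least 2-fold lower and 3.15% higher over all genes tested. Of 23 WNT pathway genes at 10 CPM, 9 were at least 2-fold lower and 1 higher, with a median of -0.86. The ligands WNT16 (12.1 and 1.57 CPM), WNT11 (29.3 and 10.2 CPM) and WNT6 (32.3 and 13.1 CPM) were lower, and so was the receptor LGR4 (21.7 and 6.85 CPM). CTNNB1 (beta-catenin), which carries the signal to the nucleus, stood at 84.5 and 46.5 CPM (log2 -0.86). The one member on the higher side, RSPO1, encodes a ligand of the LGR receptors and stood at 3.28 and 12.98 CPM (log2 1.98).

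Of 22 BMP and TGF-beta genes, 7 were at least 2-fold lower and 1 higher, with a median of -0.72, and relative to the median gene 4 were lower and 2 higher. The ligands BMP4 (25.4 and 6.70 CPM, log2 -1.92) and BMP2 (36.5 and 13.2 CPM, log2 -1.46) were lower, as was the BMP antagonist FST (80.2 and 33.1 CPM). Target genes of BMP differed, since ID4 was lower (105 and 37.9 CPM) and ID1 was even (493 and 488 CPM). TGFBI, a matrix protein induced by TGF-beta, stood at 7.06 and 33.5 CPM (log2 2.25).

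Of 17 FGF and ERBB genes, 8 were at least 2-fold lower and 2 higher, with a median of -0.91. The receptors FGFR1, FGFR2 and FGFR3 had ratios of -1.85, -1.60 and -1.58, and ERBB3 one of -1.36. EGF family ligands split: EREG stood at 30.9 and 4.71 CPM (log2 -2.71) and AREG at 307 and 163 CPM (log2 -0.91), whereas BTC stood at 14.7 and 45.4 CPM (log2 1.63) and NRG1 at 7.68 and 25.4 CPM (log2 1.72).

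Of 10 Notch and hedgehog genes, 4 were at least 2-fold lower and 0 higher, with a median of -0.92. PTCH1, the hedgehog receptor and itself a target of the pathway, stood at 14.6 CPM in catagen and 3.04 CPM in telogen (log2 -2.26). GLI3, a hedgehog transcription factor, had a ratio of -1.49 and NOTCH1 one of -1.45, and the Notch target HES1 was at 24.3 and 21.7 CPM. Of 12 IGF and hormone receptor genes, 5 were at least 2-fold lower and 1 higher, with a median of -0.73, and relative to the median gene 1 was lower and 1 higher. MET, the receptor of hepatocyte growth factor, stood at 43.3 and 13.8 CPM (log2 -1.65), and the insulin receptor INSR at 11.5 and 4.72 CPM (log2 -1.28).

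Nuclear genes of the respiratory chain leaned to the higher side. Of 35 that reached 10 CPM, 11 were at least 2-fold higher and 0 lower, beside 3.15% and 12% of all genes tested. Among the 35, 30 had a ratio above 0, and the median was 0.77. UQCR10, a small subunit of complex III, stood at 11.6 CPM in catagen and 29.3 CPM in telogen (log2 1.34), and NDUFB7, a subunit of complex I, at 113 and 281 CPM (log2 1.31). The 2 lowest were ATP5PB (37.9 and 29.5 CPM) and NDUFS1 (24.6 and 20.7 CPM). Ribosomal protein genes lay in a narrow range: 27 of 29 had a ratio above 0, none reached 2-fold, and the median was 0.45. The 5 largest gains in CPM included KRT14, S100A2 and B3GALT4, the last of them at 6287.7 and 10195 CPM. The level of B3GALT4 is uncertain because its neighbour in the RefSeq annotation, RPS18, has no row of its own.

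Genes of RNA splicing and of chromatin were called lower about as often as all genes tested. Of 40 splicing and RNA-binding genes, 6 were at least 2-fold lower and 0 higher, with a median of -0.51, and relative to the median gene 1 was lower. HNRNPU, a nuclear RNA-binding protein, stood at 337 and 152 CPM (log2 -1.15), and SON, a speckle protein, at 354 and 164 CPM (log2 -1.11). Of 23 histone and chromatin genes, 3 were at least 2-fold lower and 0 higher, with a median of -0.50, and relative to the median gene 2 were lower and 1 higher. The 3 were the demethylases KDM6B and TET3 (log2 -1.57 and -1.51) and the deacetylase SIRT1 (log2 -1.22). Of 19 translation factors none reached 2-fold, and the median was -0.07.

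**Figure D2:**
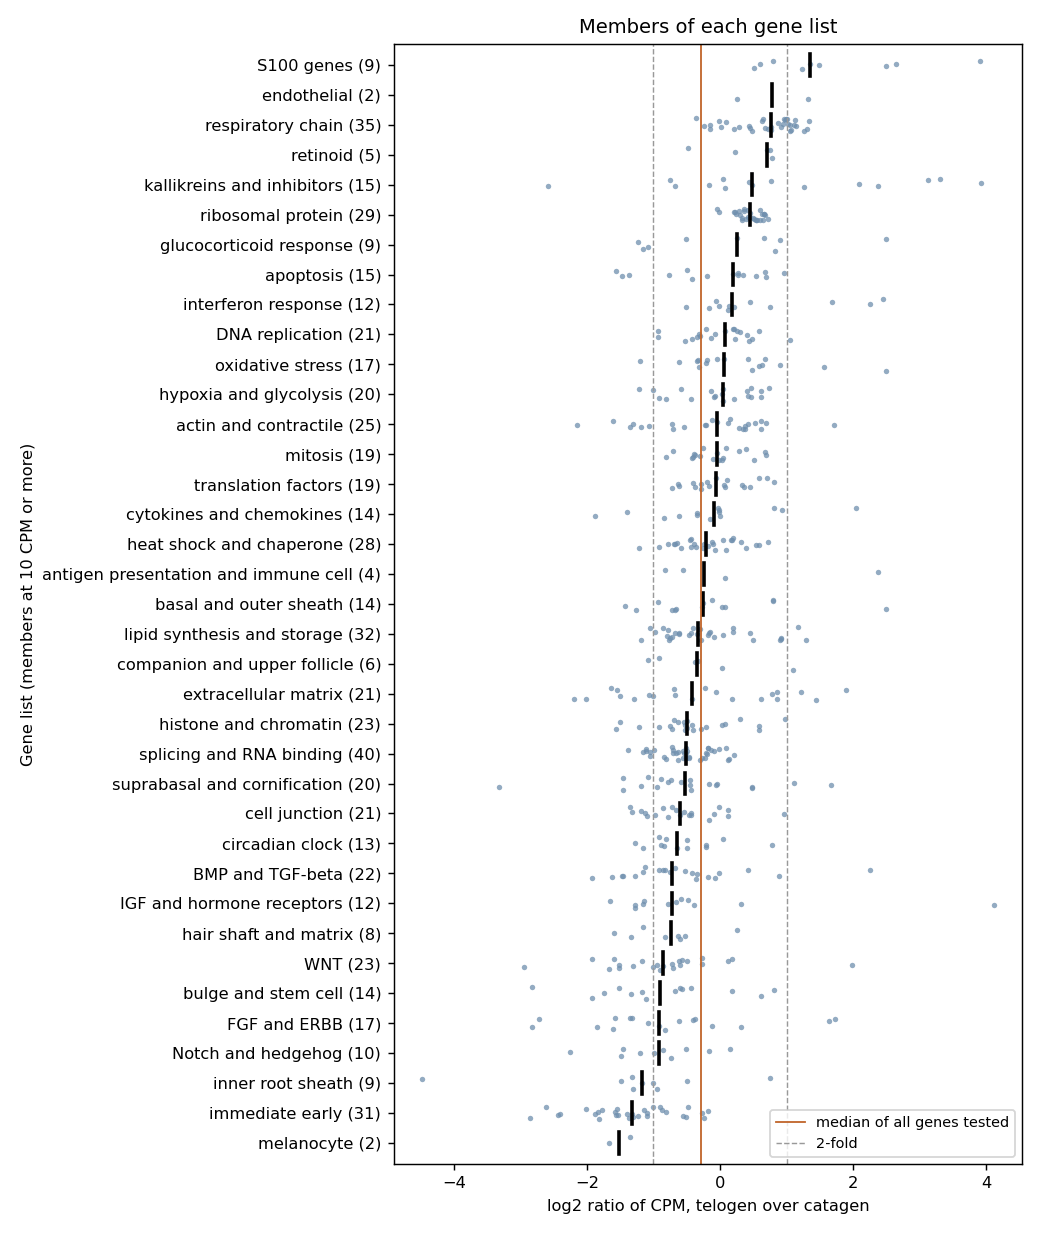
Log2 ratio of CPM, telogen over catagen, of the members of each gene list that reached 10 CPM in either library (points, with their number after the list's name), with the median of each list (black bar), the median of all genes tested (orange line) and 2-fold (dashed lines). S100 and respiratory chain genes lie to the right of the orange line, and immediate early genes to its left.

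Cell division genes were near the median gene, with no direction that held under every scaling. Of 19 mitosis genes at 10 CPM none reached 2-fold, with CENPE at -0.81 and CDCA3 at 0.70 as the extremes. TOP2A, the topoisomerase of dividing cells, stood at 135 and 101 CPM. Of 21 DNA replication genes, 1 was at least 2-fold higher and 0 lower, beside 3.15% and 12% of all genes tested. The higher one was TK1 (13.5 and 28.2 CPM). POLA1 and UHRF1 had the lowest ratios there, -0.94 and -0.93.

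Matrix genes went in both directions. Of 21 extracellular matrix genes, 3 were at least 2-fold higher and 8 lower, beside 3.15% and 12% of all genes tested. Their median was -0.43, and relative to the median gene 6 were higher and 6 lower. DCN (decorin), a small proteoglycan, stood at 51.6 and 11.3 CPM (log2 -2.19), and the fibrillar collagen gene COL5A1 at 28.7 and 10.1 CPM (log2 -1.51). TNC (tenascin C) stood at 7.37 and 27.2 CPM (log2 1.89), COL14A1 at 18.5 and 50.1 CPM (log2 1.44) and TIMP2, a metalloproteinase inhibitor, at 86.9 and 202 CPM (log2 1.21), whereas its relative TIMP3 went from 46.9 to 16 CPM (log2 -1.55).

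Of 25 actin and contractile genes, 6 were at least 2-fold lower and 1 higher, beside 12% and 3.15% of all genes tested. The higher one was the galectin gene LGALS1, which was placed on this list, and no other member reached 2-fold higher. The median was -0.04. Relative to the median gene the median of this list was 0.24, and 16 of the 25 lay above that gene. The 6 lower ones included the non-muscle myosins MYH10 (39.9 and 9.01 CPM) and MYH9 (196 and 79.3 CPM) and the actin crosslinkers ACTN4 (81.0 and 26.7 CPM) and FLNA (83.9 and 32.8 CPM). Of 21 cell junction genes, 5 were at least 2-fold lower and 0 higher, beside 12% and 3.15% of all genes tested. Their median was -0.60. DSP (desmoplakin), which ties desmosomes to keratin, stood at 3409 and 1499 CPM (log2 -1.19) and had one of the 5 largest losses in CPM. The other 4 were JUN, FOS, JUND (1435.5 and 492 CPM) and SYNE2, a linker of the nuclear envelope (2376.5 and 927 CPM).

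Markers of immune cells and melanocytes moved in a few genes. AIF1, a macrophage marker, stood at 4.89 CPM in catagen and 25.4 CPM in telogen (log2 2.37) and made up most of the immune marker sum of 5.96 and 27.5 CPM. The leukocyte gene PTPRC was at 0.349 and 0.503 CPM, and 40.7% of the AIF1 UMIs of telogen lay in the suprabasal epidermis-like cells described below. A small cluster with immune markers raised, cluster 22, is described there too. CD74, the invariant chain of MHC class II, went from 158 to 88.6 CPM (log2 -0.83). The melanocyte genes PMEL and TYRP1 stood at 9.95 and 6.54 CPM in catagen and 3.08 and 0.145 CPM in telogen.

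The ratio of a gene also moved with its span, the distance from its first to its last annotated base including introns, by which 4674 of the 4860 genes could be ranked. Ranked genes were put into 4 groups of nearly equal size. In the group with the shortest spans the median log2 ratio was 0.22, and it was -0.18, -0.39 and -0.66 in the next 3 groups. The share of genes at least 2-fold lower went from 6.67% in the shortest group to 23.5% in the longest, and the share at least 2-fold higher from 7.19% to 0.770%. The gene lists can be read against this. Set against genes of their own span group in place of the median gene, the median of the immediate early genes went from -1.04 to -1.52 and that of the FGF and ERBB genes from -0.62 to -0.92. The respiratory chain median went from 1.06 to 0.78 and the ribosomal protein median from 0.74 to 0.23. The BMP and TGF-beta list went from -0.43 to -0.28, the IGF and hormone receptor list from -0.44 to -0.29 and the cell junction list from -0.32 to -0.26. The S100 median went from 1.65 over 9 genes to 0.79 over the 6 that have a span, which do not include S100A7, S100A12 and S100A2. The median log2 ratio of catagen over anagen ran the other way in these 4 span groups, at -0.23, -0.03, 0.14 and 0.34. Catagen therefore differed in this trend from telogen and from anagen, while telogen was not set against anagen here. The header versions of the counting software, Cell Ranger 3.1.0 for catagen, 4.0.0 for anagen and 6.0.2 for telogen, differ with the stage as well. The part of the software version in the span trend was not tested.

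**Figure D3:**
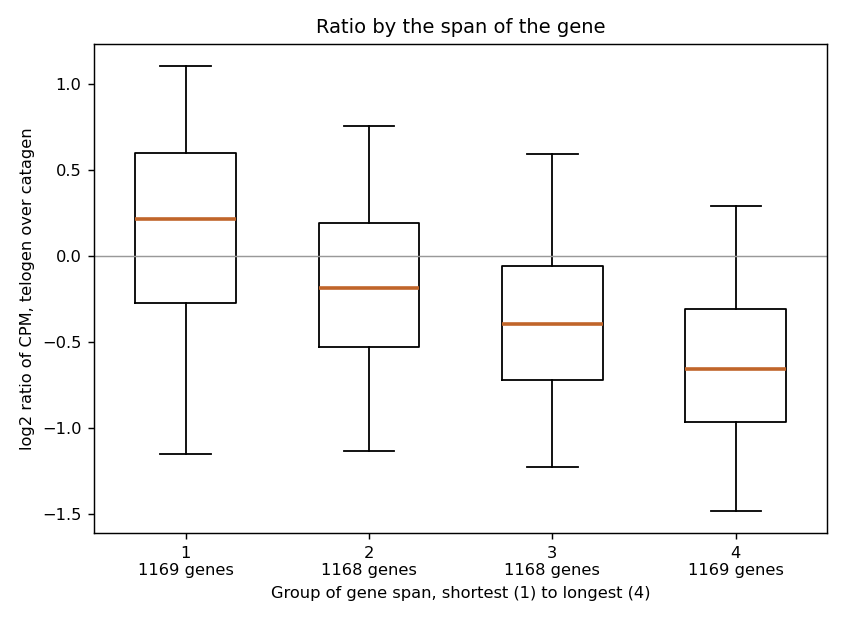
Log2 ratio of CPM, telogen over catagen, of the genes in each of 4 groups of gene span (box: middle 50% of genes with the median in orange; whiskers: 5% to 95%). The median goes from 0.22 in the shortest group to -0.66 in the longest.

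Cells of both libraries were clustered together, with the cell type markers left out of the clustering, and 10 classes were named from those markers. The naming rule was set after the clusters had been seen. Bulge and outer root sheath-like cells (3 clusters) were 2767 of 12062 catagen cells (22.9%, interval 22.2 to 23.7) and 1384 of 14502 telogen cells (9.54%, interval 9.07 to 10.03), a difference of -13.4 percentage points. Inner root sheath-like cells were 4.83% of catagen and 1.70% of telogen cells, and hair cortex-like cells 1.87% and 1.15%. Suprabasal epidermis-like cells were 14.7% and 11.7%, and basal keratinocyte-like cells 7.08% and 5.27%. The basal class is only a part of the cells with basal markers raised. Clusters 1 and 4, which have no name, had 5 and 4 of those markers raised 1.5-fold. Cluster 1 was 10.3% of catagen and 13.8% of telogen cells, and cluster 4 was 8.93% and 6.19%. Granular keratinocyte-like cells were 1.52% and 2.59%, mitotic-like cells 3.79% and 4.55%, and S phase-like cells 0.547% and 1.79%. Cluster 22, also without a name, had 6 immune markers raised: PTPRC, CD3D, CD48, LAPTM5, AIF1 and CD207. It held 18 catagen and 48 telogen cells, 0.149% and 0.331% of their libraries.

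A cluster without a name, cluster 0, was 5.89% of catagen and 22.1% of telogen cells. Its cells had medians of 748.5 and 1024 UMIs, under 0.333 times the median of their own library. None of the markers was raised 1.5-fold in it, although the basal keratinocyte marker CCL27 was among its leading genes. Without it the bulge and outer root sheath-like share was 24.4% in catagen and 12.3% in telogen, the inner root sheath-like share was 5.13% and 2.19%, and the suprabasal difference shrank to -0.58 points (interval -1.52 to 0.36). These shares therefore depend on whether that cluster is counted.

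**Figure D4:**
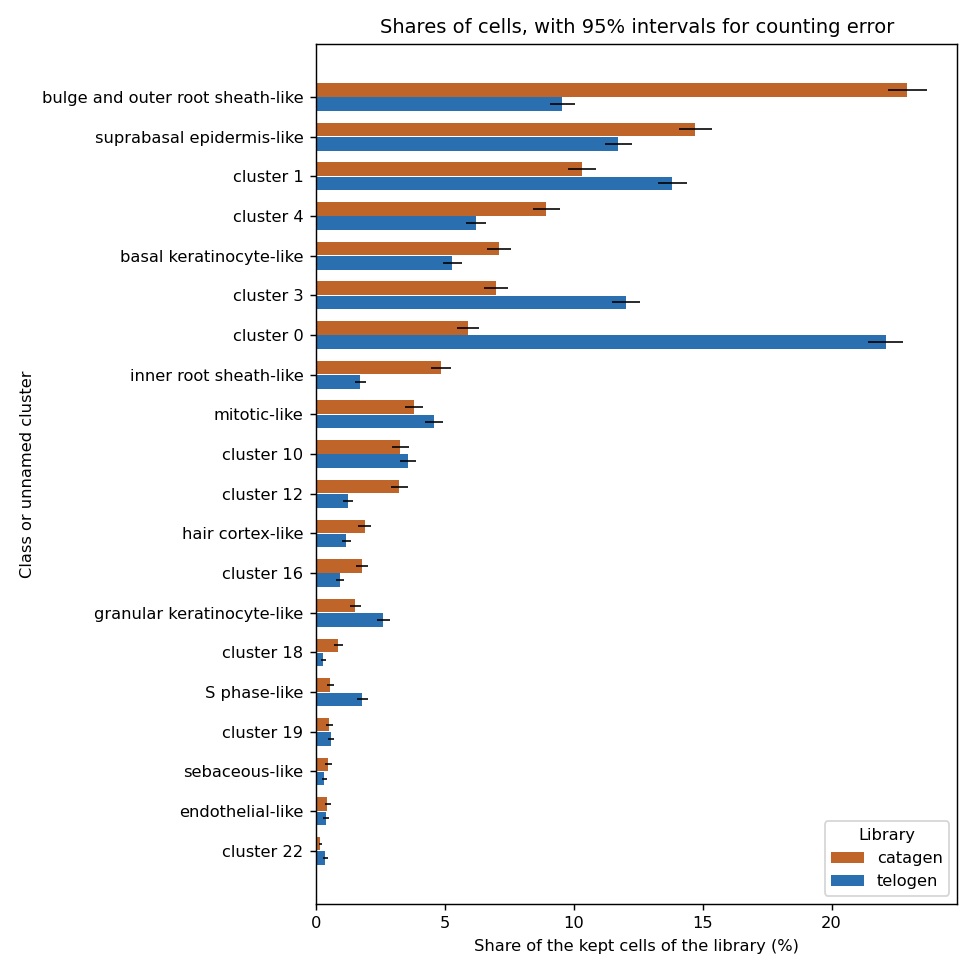
Share of the kept cells of the catagen (orange) and telogen (blue) library in each class or unnamed cluster, with exact 95% intervals for counting error. Bulge and outer root sheath-like cells go from 22.9% to 9.54%, and the low-UMI cluster 0 from 5.89% to 22.1%.

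Within classes the whole-library ratios took different forms. KRT71, KRT27 and KRT85 differed little inside the class that expressed them: KRT71 stood at 7623.4 and 8485.1 CPM of the inner root sheath-like class (log2 0.15), KRT27 at 8349.7 and 6459.3 CPM (log2 -0.37), and KRT85 at 13978 and 10975 CPM of the hair cortex-like class (log2 -0.35). KRT26 was lower inside its class too, at 121 and 11.7 CPM (log2 -3.37, interval -3.84 to -2.93), as was KRT35 at 1227.8 and 554 CPM (log2 -1.15). In the bulge and outer root sheath-like class LHX2 stood at 334 and 219 CPM (log2 -0.61), SOX9 at 809 and 524 CPM (log2 -0.63) and WIF1 at 85.2 and 34.9 CPM (log2 -1.29). This class joins clusters 6, 7 and 9, with 1153, 945 and 669 catagen and 442, 510 and 432 telogen cells. WIF1 is among the leading genes of cluster 6, and the part of this mix in the 3 ratios was not tested. FGF18 had 82.4% of its catagen UMIs in cluster 12, which has no name, and went from 728 to 170 CPM there (log2 -2.10).

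KRT77 was lower by more inside the suprabasal epidermis-like class than in the whole library, at 398 and 12.4 CPM (log2 -5.0, interval -5.22 to -4.79), while KRT2 was higher there at 38.7 and 162 CPM (log2 2.07). KRT1 and KRT10 in the same cells had ratios of 0.54 and -0.13. This class joins 2 clusters, of which cluster 15, led by KRT77, held 237 catagen and 111 telogen cells and cluster 2 held 1537 and 1589. When the libraries were clustered without being aligned, the suprabasal epidermis-like cells fell into separate clusters by library, one with 1797 catagen and 25 telogen cells and one with 5 and 1711. Basal keratinocyte-like cells did likewise, with 1970 and 38 cells in one cluster and 2 and 736 in another. In the suprabasal epidermis-like class S100A7 went from 762 to 14855 CPM (log2 4.29), S100A12 from 100.5 to 1013.1 CPM (log2 3.33) and S100A8 from 44.7 to 437 CPM (log2 3.29). That class held 80.6% of S100A7 UMIs in catagen and 76.7% in telogen. S100A7 was also counted outside keratinocytes. It had 0 UMIs in the catagen endothelial-like cells and 109 UMIs (385 CPM) in the telogen ones, at least 14.4-fold higher against a floor of 3 UMIs, and KLK7 had 2 and 86 UMIs there. The part of free RNA in the S100A7 and KLK7 ratios of classes that do not make them was not tested.

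The granular keratinocyte-like class held 59.8% of KLK5 UMIs in catagen and 63.1% in telogen, but 22.8% and 37.9% of those of KLK7, 6.10% and 50.1% of those of KLK6 and 6.29% and 31.6% of those of SPINK9. Cluster 16, which has no name, held 58.6% and 17.6% of KLK7, 53.7% and 22.1% of KLK6 and 80.4% and 43.8% of SPINK9 UMIs. KLK5 stood at 126 and 808 CPM of that class (log2 2.68), KLK7 at 1804.6 and 7802 CPM (log2 2.11), KLK6 at 3.89 and 297 CPM (log2 6.25, interval 5.03 to 7.88) and SPINK9 at 14.02 and 375 CPM (log2 4.74). SERPINA12 and EREG were lower in the same cells, at 413 and 58.8 CPM (log2 -2.81) and at 462 and 60.4 CPM (log2 -2.93). KLK7, KLK6 and SPINK9 are also among the markers that named the class. In cluster 16 KLK7 stood at 3600.5 and 8338.6 CPM (log2 1.21), KLK6 at 26.6 and 301 CPM (log2 3.50) and SPINK9 at 139 and 1193.6 CPM (log2 3.099).

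IGFBP6 was higher in all 9 named classes with at least 50 cells in each library. It was 28.5 and 980 CPM in basal keratinocyte-like cells (log2 5.10), 19.1 and 149 CPM in bulge and outer root sheath-like cells (log2 2.96) and 107 and 378 CPM in endothelial-like cells (log2 1.82, interval 0.96 to 2.82). MT2A was also higher in all 9, from a log2 ratio of 1.06 in inner root sheath-like to 3.62 in bulge and outer root sheath-like cells. LGALS1 was not: it went from 62.0 to 827 CPM in bulge and outer root sheath-like cells (log2 3.74), was even in hair cortex-like cells (441 and 448 CPM) and was lower in endothelial-like cells (log2 -0.71, interval -1.23 to -0.18). CCL27 went from 224 to 1039.5 CPM in basal keratinocyte-like cells (log2 2.22), which held 67.0% and 56.2% of its UMIs. The part of free RNA in the IGFBP6 and MT2A ratios of single classes was not tested either.

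The median of the immediate early list was below 0 in all 9 classes, from -2.03 in S phase-like to -0.64 in endothelial-like cells. In S phase-like cells 24 of 32 members were at least 2-fold lower, beside 15.6% of all genes tested there. In endothelial-like cells 11 of 36 were, which is near the 30.8% of all genes tested there, and relative to the median gene of that class the list's median was -0.30. NR4A2 went from 427 to 56.2 CPM in suprabasal epidermis-like cells (log2 -2.92) and from 343 to 35.7 CPM in basal keratinocyte-like cells (log2 -3.26). In endothelial-like cells it had 8 UMIs in each library, and the interval of its ratio reached from -2.94 to 0.28. CCN2 differed more between classes, with a ratio of -3.15 in suprabasal epidermis-like, -2.95 in basal keratinocyte-like and -0.78 in bulge and outer root sheath-like cells, and it was not lower in endothelial-like cells, at 293 and 423 CPM (log2 0.53, interval -0.04 to 1.13).

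The respiratory chain median was above 0 in all 9 classes, from 0.40 in hair cortex-like to 0.89 in basal keratinocyte-like cells, and the ribosomal protein median likewise, from 0.23 to 0.82. The WNT list was below 0 in all 9, from -1.27 in mitotic-like to -0.49 in granular keratinocyte-like cells. The median of all genes tested was below 0 in each class too, from -0.46 in mitotic-like to -0.02 in basal keratinocyte-like cells. Relative to it the WNT median went from -0.82 in mitotic-like to -0.17 in granular keratinocyte-like cells. Hair shaft and matrix genes were lower in the mitotic-like class, where 8 of the 9 that reached 10 CPM were at least 2-fold lower, beside 20.5% of all genes tested there. LEF1 went from 82.5 to 15.5 CPM there (log2 -2.41), PTCH1 from 67.9 to 8.88 CPM (log2 -2.93) and BMP4 from 67.3 to 11.5 CPM (log2 -2.54). DCN also went from 335 to 32.6 CPM there (log2 -3.36, interval -3.55 to -3.17). KRT14 went from 3857.6 to 21328 CPM in the same class (log2 2.47), against 26465 and 40601 CPM in basal keratinocyte-like cells (log2 0.62). In basal keratinocyte-like cells DCN went the other way, from 15.8 to 45.9 CPM (log2 1.54). When the libraries were not aligned, mitotic-like cells fell into a cluster with 230 catagen and 884 telogen cells and another with 303 and 120. The mix of cells in the mitotic-like class may thus differ between libraries, and its part in these ratios was not tested.

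Endothelial-like cells numbered 52 in catagen and 53 in telogen, and the catagen ones were mixed. TYRP1, an enzyme of melanin synthesis, had 213 UMIs (1891.7 CPM) in them and 0 UMIs in the telogen ones, at least 179-fold lower against a floor of 3 UMIs. CD74 stood at 1536.5 and 2929.1 CPM of this class (log2 0.93), in the opposite direction to the whole library.

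**Figure D5:**
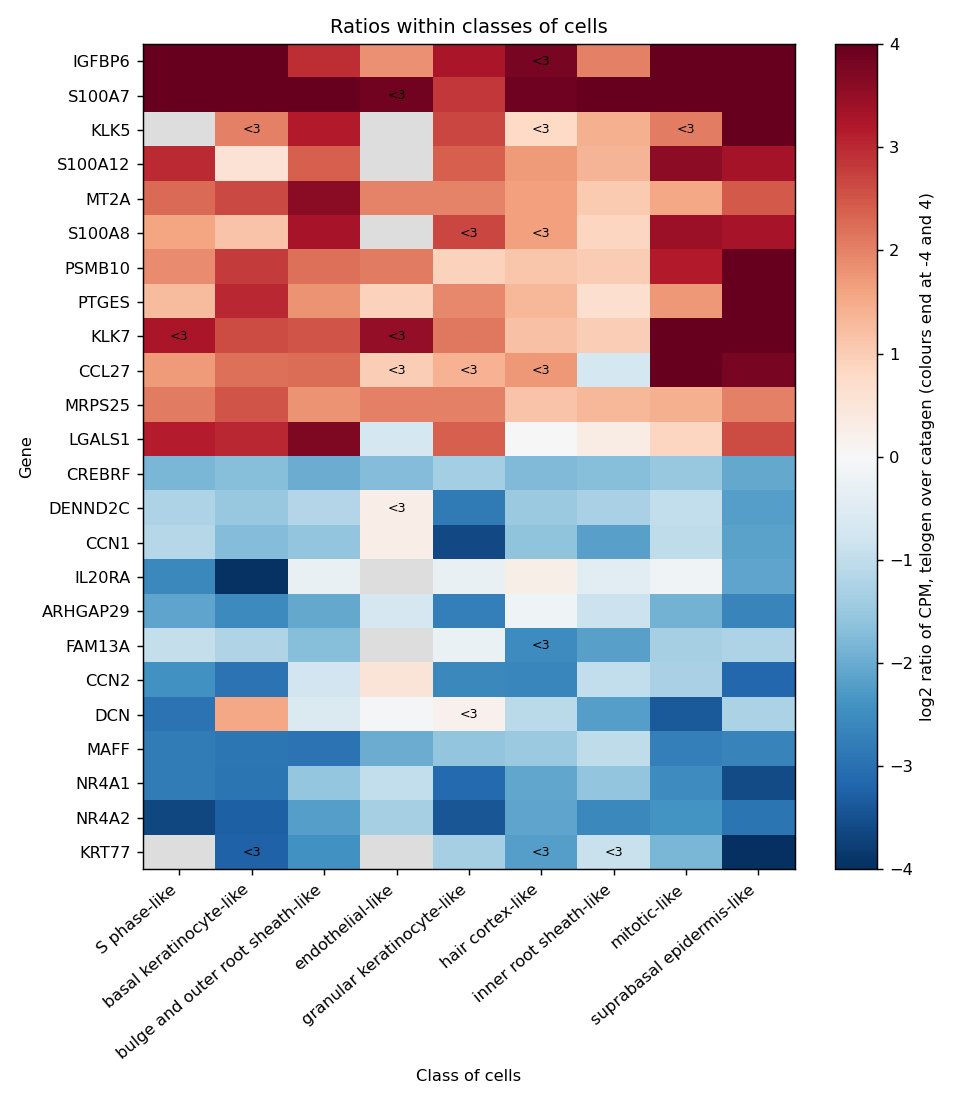
Log2 ratio of CPM of the class, telogen over catagen (colour, ending at -4 and 4), of the 12 highest and 12 lowest genes within each named class with at least 50 cells in both libraries. "<3" marks squares where a library had under 3 UMIs, which were set to 3, and grey squares were not above that floor; S100A7, IGFBP6 and MT2A are red and NR4A2, NR4A1 and MAFF blue in all 9 classes.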

How the data were processed

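The authors deposited raw, unscaled counts of UMIs from Cell Ranger, with a matrix of genes by barcodes for each library. The file headers name version 3.1.0 for catagen and 6.0.2 for telogen, and the submitters' processing notes name 2.1.1. The genome build is not given in the sources used here. From these counts, cells with at least 200 genes were kept, UMIs were summed per gene and scaled to CPM by the library total. Of 26924 genes, 15765 carry a symbol, and genes without one held 49.0% of catagen and 45.1% of telogen UMIs. None is named as mitochondrial, so no mitochondrial limit was set. Doublets were left in and no caller was run. Ratios carry exact binomial intervals, shares Clopper-Pearson intervals and differences of shares Newcombe intervals, all at 95%. With 1 library per stage no p-value was computed.

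Clustering used Seurat 5.3.0 in R 4.3.3, with anchors between the 2 libraries, 2000 variable genes without the 105 markers that have a row, 30 components, 20 neighbours and resolution 0.8. A class needed 3 markers raised 1.5-fold over the other cells and the most markers among its 10 leading genes. Python 3.11.15 with numpy 2.4.6, pandas 2.3.3 and scipy 1.17.1 did the rest, and the scripts were tested on simulated data.

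Genes named are the 12 highest and 12 lowest ratios at 50 CPM, the 5 largest gains and losses in CPM, the 2 highest and lowest members of each of 38 lists and the 3 highest and lowest of each class. Some genes that these rules select are not reported here. Other members were picked for their known role after their values had been seen. The comparison and the lists were chosen with earlier results of these data known. Gene spans, used only to rank genes, came from the RefSeq annotation of assembly Bosgru_T2T1.0, matched by symbol.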

Additional observations from a re-analysis of the deposited data

Results flagged for a closer look

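Genes without a symbol took no part in the comparison above, and 498 of them reached 50 CPM in either library. The 2 highest and the 2 lowest of these by the ratio of telogen over catagen are given here by their identifiers, since the files pair no name with them. ENSBGRG00000000687 stood at 2.19 CPM in catagen and 157 CPM in telogen, a log2 ratio of 6.16 (interval 5.89 to 6.44), with 357 CPM in anagen. ENSBGRG00000005077 stood at 14.5 and 723 CPM, a log2 ratio of 5.64, with 5036.9 CPM in anagen. ENSBGRG00000018450 stood at 4218.6 CPM in catagen and 746 CPM in telogen, a log2 ratio of -2.50, with 1903.7 CPM in anagen. ENSBGRG00000003029 stood at 2819.4 and 520 CPM, a log2 ratio of -2.44, with 2000.6 CPM in anagen. The first 2 exceed the ratio of every gene with a symbol that reached 50 CPM.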

How the results depend on the processing

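No gene among the 34 with the largest ratios, gains or losses changed direction under any of 9 other settings of cells and scaling. These genes were picked by their values in the same counts, and new scaling shifts all genes alike. A change of direction was therefore unlikely from the start. The setting with the same smallest UMI total left all 34 as they were. KLK5 alone moved by over 1.5-fold, to a log2 ratio of 4.35 without the 5% of cells with the most UMIs, which stand in for doublets. Counts of genes depended on scaling and minimum. Median-of-ratios scaling gave the same counts as the comparison relative to the median gene, 361 higher and 262 lower. Its median of 0 is set by that scaling. With totals that leave out the 20 most abundant genes 930 were lower, with a median of -0.399. At 50 CPM 79 were higher and 193 lower, and at 1 CPM 300 and 1487. The next 2 alternatives were chosen after seeing the data. Relative to genes of the same span group 239 were lower, and the glucocorticoid list had a median of -0.030. Relative to the median gene that list stood at 0.543 in the main comparison and at -0.063 at 1 CPM. On the same scale the extracellular matrix list went from -0.138 to 0.578 and the mitosis list from 0.239 to -0.375 at 50 CPM. Without the low-UMI cluster the differences in share were 1.71 points for S phase-like, -0.76 for basal, -12.12 for bulge and outer root sheath-like, 0.01 for endothelial-like (reversed), 1.72 for granular, 1.82 for mitotic-like and -0.58 for suprabasal cells. Without integration they were -11.01 for basal, -17.31 for bulge and outer root sheath-like, -0.02 for granular (reversed), -3.94 for inner root sheath-like and 2.50 for mitotic-like cells, and no S phase-like class was found. The cause was not tested. No paired analysis was possible because each stage has 1 library. Genes under about 10 CPM are thinly counted, and a count of 0 allows up to 0.0582 CPM in catagen and 0.0290 CPM in telogen.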

Other observations

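Few stress and metabolic genes reached 2-fold, beside 3.15% higher and 12% lower over all genes tested. Relative to the median gene the list medians were 0.08 for heat shock and chaperone, 0.33 for hypoxia and glycolysis and 0.35 for oxidative stress. Of 28 heat shock and chaperone genes, 1 was at least 2-fold lower, DNAJB6 (52.0 and 22.5 CPM), and 0 were higher. Of 20 hypoxia and glycolysis genes, 2 were at least 2-fold lower, the demethylase KDM3A (21.1 and 9.10 CPM) and NDRG1 (337 and 168 CPM), while ENO1 and PFKP of glycolysis had ratios of 0.61 and 0.73. Of 17 oxidative stress genes, 2 were higher: MT2A and DUOX1, an oxidase that makes hydrogen peroxide (24.2 and 71.4 CPM, log2 1.56). TXNRD1, a thioredoxin reductase, was lower at 21.9 and 9.47 CPM. Of 15 apoptosis genes, 3 were lower, BIRC3, CDKN1A and MCL1 (log2 -1.56, -1.47 and -1.37), and 0 higher. The apoptosis list as a whole had a median of 0.19 beside -0.29 over all genes tested, with 8 ratios above 0.

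Lipid genes as a list were near the median gene, at -0.04 relative to it, and single members went either way. FABP5, a fatty acid binding protein of epidermis, stood at 335 and 757 CPM (log2 1.18), ELOVL3, an elongase of sebaceous and inner follicle cells, at 24.1 and 59.3 CPM (log2 1.30), and the lipid droplet gene PLIN2 at 22.6 and 42.8 CPM. ACLY and IDI1, enzymes of fatty acid and cholesterol synthesis, were lower (log2 -1.19 and -1.05). Of 32 lipid genes at 10 CPM, 2 were at least 2-fold higher and 2 lower, beside 3.15% and 12% of all genes tested. Set against the median gene, 5 of them were higher and 0 lower. All 5 retinoid genes stayed within 2-fold, from RARG at -0.48 to CRABP2 at 0.78. Their median was 0.70 with 4 of the 5 above 0, and relative to the median gene 2 were at least 2-fold higher and 0 lower.

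Counts in this paragraph stand beside 3.15% at least 2-fold higher and 12% lower over all genes tested. Of 13 circadian clock genes, 2 were at least 2-fold lower, NFIL3 (log2 -1.27) and ARNTL (log2 -1.15), and 0 higher. Relative to the median gene 0 were lower and 1 was higher. The time of day of sampling is not stated in the labels. Of 9 glucocorticoid response genes, 1 was at least 2-fold higher, MT2A, and 3 lower, among them the receptor gene NR3C1 (87.3 and 39.0 CPM), but relative to the median gene 3 were higher and 0 lower. Of 14 cytokine and chemokine genes, CCL27 was higher and IL20RA and CSF1 (log2 -1.40) lower, and IL18 stood at 38.3 and 72.8 CPM. Of 6 companion layer and upper follicle genes, KRT79 was higher (54.2 and 115 CPM) and KRT80 lower (72.4 and 34.03 CPM). KRT79 itself was even inside cluster 3, its main cluster, at 348 and 380 CPM, and that cluster was 6.97% of catagen and 12.02% of telogen cells. In that cluster BTC went from 35.1 to 126 CPM (log2 1.85) and RSPO1 from 12.7 to 39.7 CPM (log2 1.64).

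Lists for cells other than keratinocytes had few genes at 10 CPM: 4 for antigen presentation and immune cells, with AIF1 higher, 2 for endothelium, with CAV1 higher (10.8 and 26.9 CPM), 2 for melanocytes, with MITF and ERBB3 both lower (log2 -1.66 and -1.36), and 0 for haemoglobin. Bulge and outer root sheath-like cells held 52.9% of the CAV1 UMIs of catagen and 38.5% of those of MITF. The whole-library ratios of these genes thus do not stand for their lists' cell types alone. Whether either gene marked its cell type was not tested.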
